A study of Homo sapiens with 12 samples.

Results

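Transcripts of 9 genes that p53 is known to activate (CDKN1A, SESN1, MDM2, PHLDA3, BAX, BBC3, FAS, TNFRSF10B and GDF15) were followed in a pair of human embryonal carcinoma lines with and without knock-down of SOX2. The genes were chosen by name as direct p53 targets, with earlier results of these data known. Counts set against all genes below are thus description. Each target was read by 1 probe set of the 32321 on the array. The targets made up 9 of the 18404 genes with a probe set of their own. The transcript of p53 itself was not analysed here. Both lines are human cancer lines: 2102Ep, regarded as nullipotent, and NTera-2, a pluripotent line. Each received either an siRNA against SOX2 (siSOX2) or the non-targeting Silencer Select Negative Control #1 for 6 hours and was harvested after a further 72 hours in growth medium. There were 4 groups of 3 arrays, labelled as biological replicates. Lipofectamine 2000 was used for 2102Ep cells and Lipofectamine RNAiMAX for NTera-2 cells, and the siRNA amount also differed, so that line, lipid and siRNA amount cannot be told apart.

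p53 is a transcription factor that is held at low levels by the ubiquitin ligase MDM2 and accumulates when DNA is damaged or cells are otherwise stressed. It binds paired copies of a short motif near its target genes, which halt the cell cycle, start apoptosis, assist DNA repair or adjust metabolism, and MDM2 is itself a target, which closes a negative feedback loop. Embryonal carcinoma cells usually keep an intact p53, and germ cell tumours are known for their sensitivity to DNA-damaging drugs.

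Promoter windows of the target genes were searched for the p53 motif, to show what such a sequence looks like in front of genes described here. RefSeq windows (build GRCh38.p14) ran from 250 bases before to 50 bases after each transcription start and were given for 7 of the 9 genes, in 14 windows. PHLDA3 and TNFRSF10B had no window in the table. The p53 full-site consensus, 2 adjoining half-sites without a spacer and with at most 3 mismatches of 20 bases, the central C and G of each half-site being kept, was matched in 5 of the 14 windows, those of 4 genes, against 1.12% of all 35116 windows. This mismatch limit was chosen after the sequences were seen. The matches are printed 5′ to 3′ on the strand of the gene, with the 20 matched bases in capitals.
FAS: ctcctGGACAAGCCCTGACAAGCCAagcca
GDF15: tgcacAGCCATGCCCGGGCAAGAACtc
MDM2: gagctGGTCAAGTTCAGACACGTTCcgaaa
SESN1: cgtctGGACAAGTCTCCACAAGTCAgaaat
The FAS sequence lies on the plus strand at chr10:88991304-88991333, its match beginning at -122 from the start, with 2 mismatches. The GDF15 sequence lies on the plus strand at chr19:18386181-18386207, with the match from +29 and 3 mismatches. The MDM2 sequence lies on the plus strand at chr12:68808918-68808947, with the match from -101 and 2 mismatches. The SESN1 sequence lies on the minus strand at chr6:109009013-109009042, with the match from -49 and 3 mismatches. A single p53 half-site consensus without mismatch was found in 2 of the 14 windows, those of FAS and SESN1, against 6.63% of all windows. The letters CATG, which read the same on both strands and can form the centre of a half-site, were found in 5 of the 14 windows (FAS, GDF15, MDM2 and SESN1), fewer than the 54.9% of all windows. TATAAA on either strand was found in 1 of the 14 windows, that of GDF15, against 11.5%. These are matches of letters, and binding of p53 was not measured.

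The targeted gene was lower in the siSOX2 groups of both lines. SOX2 signal fell by 3.14 on the log2 scale in 2102Ep cells, to 11.4% of control, and fell by 0.64 in NTera-2 cells, to 64.0% (limma adjusted p = 6.22e-12 and 0.00225). Of 11 measured markers of pluripotent cells, 7 fell in 2102Ep and 5 in NTera-2, against 5.9% and 1.98% of all genes. SOX2, the targeted gene, is itself counted among the markers that fell in each line. Of 8 primitive streak and mesoderm markers, 6 and 4 rose, against 6.76% and 2.96% of all genes. The same shares are the background of the fibroblast counts. The mean of the streak and mesoderm markers went from between 7.66 and 7.68 to between 10.2 and 10.4 in 2102Ep arrays, and from between 7.49 and 7.59 to between 8.30 and 8.47 in NTera-2 arrays. Mean signals of 5 leukocyte markers lay between 5.44 and 5.67 on every array and none of them passed the test. Of 8 fibroblast markers, 1 rose and 1 fell in 2102Ep, 2 rose and 1 fell in NTera-2, and their array means lay between 6.61 and 6.81 in control and between 6.80 and 6.97 in siSOX2 arrays. The part that these marker changes have in the results below was not tested, and fewer expressing cells cannot be told apart from less RNA per cell. Array medians ranged from 7.43 to 7.58.

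At baseline, 8 of the 9 target genes had lower signal in NTera-2 than in 2102Ep control cells, and TNFRSF10B, a receptor for the death ligand TRAIL, was the exception. All 9 differences passed an adjusted p of 0.05 (1 higher, 8 lower), in a comparison in which 21% of all genes were higher and 21.5% lower in NTera-2. With a fold threshold of 2 added, 4 genes were called: TNFRSF10B higher, against 4.49% of all genes, and SESN1, PHLDA3 and GDF15 lower, against 3.28%. The control arrays of the lines did not overlap for any of the 9, against 50.5% of all genes. With the siSOX2 arrays included, all 6 arrays of one line still lay apart from all 6 of the other for all 9 genes, against 29.9%. The median difference of the 9 was -0.72 (log2, NTera-2 minus 2102Ep), compared with -0.06 over all genes.

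**Figure D1:**
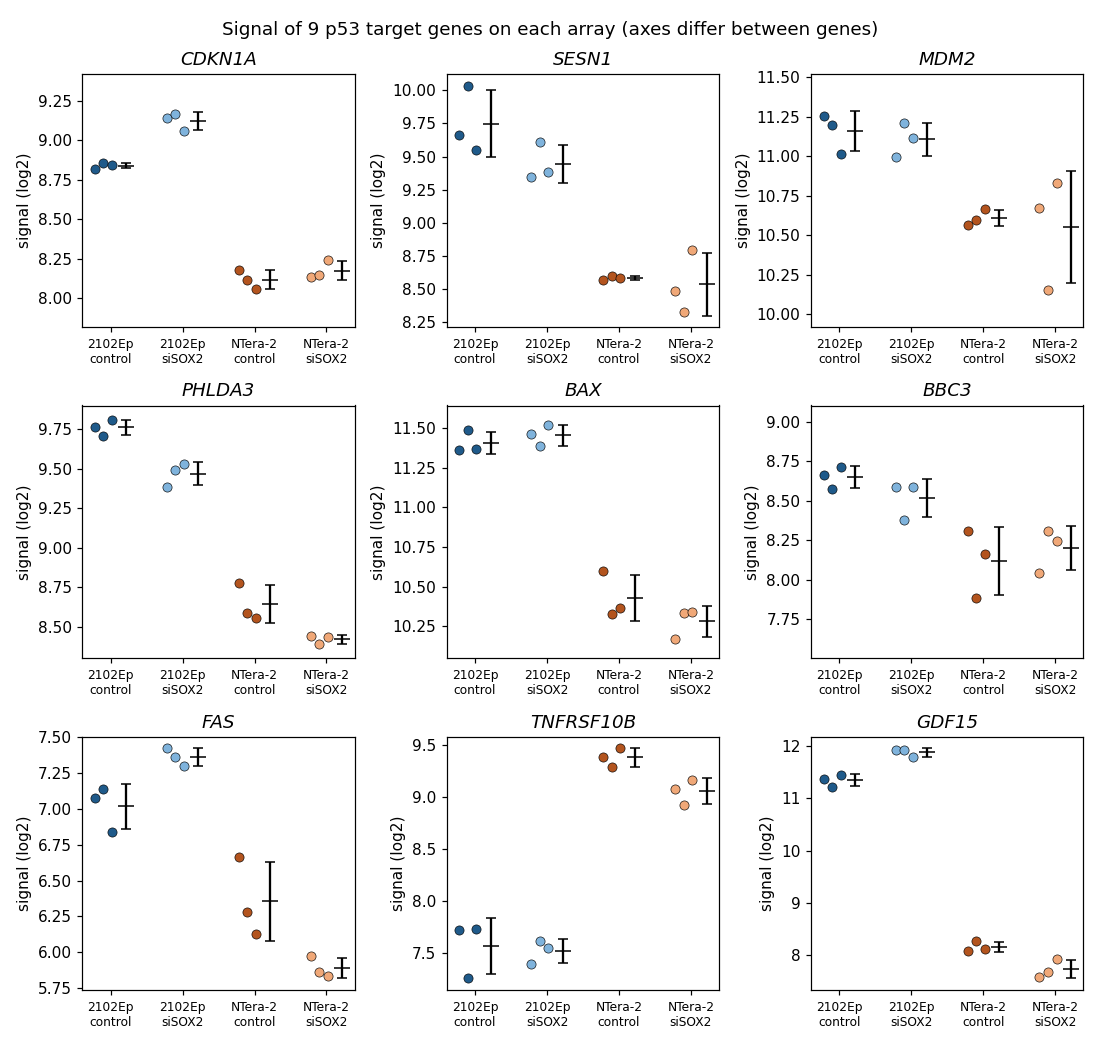
Signal (log2) of each of the 9 p53 target genes on the 12 arrays; points are arrays in the order of replicates 1 to 3, and bars show the group mean and SD (n = 3). Each gene has its own axis. All 6 arrays of 2102Ep lie above all 6 of NTera-2 except for TNFRSF10B, which is the other way round, and GDF15 shows the widest gap.

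The genes of cell cycle arrest and feedback are taken first. CDKN1A encodes p21, an inhibitor of cyclin-dependent kinases and the best known arrest target of p53. Its log2 signal was 8.82, 8.85 and 8.84 in the control 2102Ep arrays and 8.18, 8.11 and 8.06 in those of NTera-2. The NTera-2 level was 60.7% of that in 2102Ep (log2 difference -0.72, SE 0.092, adjusted p = 6.62e-06). After siSOX2, 2102Ep arrays read 9.14, 9.16 and 9.06 and NTera-2 arrays 8.13, 8.15 and 8.24. The 2102Ep arrays did not overlap with their controls whereas the NTera-2 arrays did. The increase in 2102Ep (0.28, 95% interval 0.09 to 0.48) had an adjusted p of 0.0544 and did not pass, and in NTera-2 the difference was 0.06 (-0.14 to 0.25, adjusted p = 0.868). The p in 2102Ep passed under 3 other settings, at 0.0319 without dim genes, 0.0331 with arrays centred on their medians and 0.0317 after a further quantile normalization.

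SESN1, a stress-induced sestrin that restrains the growth kinase complex mTORC1, read 9.67, 10.04 and 9.55 in control 2102Ep arrays and 8.56, 8.60 and 8.58 in control NTera-2 arrays. The level in NTera-2 was 44.5% of that in 2102Ep, a 2.25-fold difference (log2 -1.17, SE 0.14, adjusted p = 2.70e-06). With siSOX2 the arrays read 9.34, 9.61 and 9.38 in 2102Ep and 8.48, 8.33 and 8.80 in NTera-2, overlapping with their controls in both lines. Neither difference passed (-0.30, adjusted p = 0.19, and -0.04, adjusted p = 0.944).

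MDM2, the ubiquitin ligase that marks p53 for degradation, was separated by line and not by knock-down. Control arrays read 11.26, 11.20 and 11.01 in 2102Ep and 10.56, 10.60 and 10.66 in NTera-2, and siSOX2 arrays 11.00, 11.21 and 11.12 and 10.67, 10.15 and 10.83. Control and siSOX2 arrays overlapped in both lines. The siSOX2 difference was -0.05 (95% interval -0.35 to 0.25, adjusted p = 0.898) in 2102Ep and -0.06 (-0.35 to 0.24, adjusted p = 0.928) in NTera-2, intervals that allow for changes in either direction. At baseline the NTera-2 level was 68.4% of that in 2102Ep (log2 -0.55, SE 0.14, adjusted p = 0.00445).

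PHLDA3 encodes a small pleckstrin homology domain protein that competes with the kinase AKT for membrane lipids. It had log2 signals of 9.77, 9.71 and 9.81 in control 2102Ep arrays and 8.78, 8.59 and 8.56 in NTera-2, a 2.17-fold difference (log2 -1.12, SE 0.097, adjusted p = 8.54e-08). After siSOX2 the arrays read 9.39, 9.49 and 9.53 in 2102Ep and 8.44, 8.39 and 8.44 in NTera-2. All siSOX2 arrays lay below all controls of the same line, in both lines. The differences were -0.29 (95% interval -0.50 to -0.09) in 2102Ep and -0.22 (-0.43 to -0.01) in NTera-2, with adjusted p-values of 0.0599 and 0.293, neither of which passed. In 2102Ep the p passed without dim genes (0.0376) and after a further quantile normalization (0.0445).

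Of the intracellular apoptosis genes, BAX forms pores in the outer mitochondrial membrane. Its control arrays read 11.37, 11.49 and 11.37 in 2102Ep and 10.60, 10.33 and 10.37 in NTera-2, where the level was 50.7% (log2 -0.98, SE 0.10, adjusted p = 8.61e-07). That difference lay just below 2-fold and was therefore not called. With siSOX2, BAX read 11.46, 11.39 and 11.52 in 2102Ep and 10.17, 10.33 and 10.34 in NTera-2, overlapping with the controls in both lines. The differences of 0.05 and -0.15 had adjusted p-values of 0.863 and 0.598.

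BBC3 encodes PUMA, a BH3-only protein that releases BAX from its inhibitors. It read 8.66, 8.57 and 8.72 in control 2102Ep and 8.31, 7.88 and 8.16 in control NTera-2 arrays, where the level was 69.0% (log2 -0.53, SE 0.12, adjusted p = 0.00158). After siSOX2 it read 8.59, 8.38 and 8.59 in 2102Ep and 8.04, 8.31 and 8.25 in NTera-2. Arrays overlapped between siSOX2 and control in both lines. The differences were -0.13 (95% interval -0.39 to 0.12, adjusted p = 0.594) and 0.08 (-0.17 to 0.34, adjusted p = 0.845).

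The pair of death receptors differed from each other in their baseline. FAS, the receptor for Fas ligand, was a dim gene whose mean over the arrays was below the median gene, so that its fold changes may be understated. It read 7.07, 7.14 and 6.84 in control 2102Ep arrays and 6.66, 6.28 and 6.13 in control NTera-2 arrays, where the level was 63.3% (log2 -0.66, SE 0.13, adjusted p = 0.000447). After siSOX2 it read 7.42, 7.36 and 7.30 in 2102Ep, above every control array, and 5.97, 5.86 and 5.84 in NTera-2, below every control array. Those NTera-2 values were near the highest array mean of the leukocyte markers (5.67). In NTera-2 FAS fell by 0.47 (95% interval -0.74 to -0.20, adjusted p = 0.0439), to 72.4% of control. In 2102Ep the difference of 0.34 (0.07 to 0.61) had an adjusted p of 0.1 and did not pass. The difference between these responses passed, at 0.81 (SE 0.18, 95% interval 0.43 to 1.19, adjusted p = 0.0116), or 1.75-fold. The gap between the lines was thus 1.58-fold in control and 2.77-fold in siSOX2 cells.

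The FAS decrease in NTera-2 passed the adjusted p only weakly and was not called. Its adjusted p was over 0.05 without any one of 9 of the 12 arrays, ranging over all 12 omissions from 0.0265 to 0.258, the highest value being that without NTera-2 control replicate 1, in which FAS was highest. Arrays of 2102Ep, which bear on it only through the shared estimate of spread, were among the 9. The values without 2102Ep control replicate 1 and siSOX2 replicates 1, 2 and 3 were 0.0528, 0.0598, 0.0616 and 0.0598. Those without NTera-2 control replicate 2 and siSOX2 replicates 1, 2 and 3 were 0.0752, 0.0818, 0.104 and 0.161. The change itself kept its direction, at between -0.58 and -0.31. In 2102Ep the FAS increase passed without NTera-2 control replicate 1 (adjusted p = 0.0491). The difference in response stayed past the threshold with any 1 array left out (adjusted p from 0.00707 to 0.0351).

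TNFRSF10B, the TRAIL receptor also called DR5, was the 1 target with higher signal in NTera-2. It read 7.72, 7.26 and 7.73 in control 2102Ep and 9.38, 9.29 and 9.47 in control NTera-2 arrays, a 3.51-fold difference (log2 1.81, SE 0.13, adjusted p = 6.51e-09). With siSOX2 it read 7.39, 7.62 and 7.55 in 2102Ep, within the range of the controls, and 9.08, 8.92 and 9.17 in NTera-2, below all 3 controls. The NTera-2 difference of -0.32 (95% interval -0.59 to -0.05) had an adjusted p of 0.209 and did not pass, nor did that in 2102Ep (-0.05, adjusted p = 0.891).

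GDF15, a secreted member of the TGF-β superfamily that rises in many kinds of cell stress, had the widest gap between the lines and was the only one of the 9 to pass the adjusted p after siSOX2 in both. Control arrays read 11.37, 11.22 and 11.44 in 2102Ep and 8.08, 8.27 and 8.12 in NTera-2, so that 2102Ep cells had 9.1-fold more (log2 -3.19 for NTera-2 minus 2102Ep, SE 0.11, adjusted p = 1.31e-12). After siSOX2 it read 11.92, 11.93 and 11.79 in 2102Ep and 7.59, 7.69 and 7.94 in NTera-2. All siSOX2 arrays lay above the controls in 2102Ep and all lay below them in NTera-2. GDF15 rose 1.45-fold in 2102Ep (log2 0.53, SE 0.11, 95% interval 0.30 to 0.77, adjusted p = 0.00286). In NTera-2 it fell by 0.42 (95% interval -0.65 to -0.18, adjusted p = 0.0371), to 74.8% of control. The difference between the responses was 0.95 (SE 0.16, 95% interval 0.62 to 1.29, adjusted p = 0.00102), or 1.94-fold, and the gap between the lines went from 9.1-fold to 17.6-fold.

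The 2102Ep increase and the difference in response of GDF15 passed with any 1 array left out (adjusted p from 0.00169 to 0.0164 and from 0.000586 to 0.00475). The difference also reached the fold threshold of 2 without 2102Ep control replicate 3 (1.00) and without NTera-2 siSOX2 replicate 3 (1.05). The NTera-2 decrease was weaker. Its adjusted p was 0.0529 and 0.0506 without 2102Ep siSOX2 replicates 1 and 2, and 0.0651, 0.157 and 0.103 without NTera-2 control replicates 1, 2 and 3. It was 0.183 and 0.101 without NTera-2 siSOX2 replicates 1 and 2. The change itself ran from -0.52 to -0.34.

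Knock-down of SOX2 changed none of the 9 genes by 2-fold in either line. In 2102Ep, 1 gene rose (GDF15) and 0 fell, in a comparison in which 6.76% of all genes rose and 5.9% fell. None of the 9 was called with the fold threshold, against 1.98% of all genes. The siSOX2 and control arrays did not overlap for 4 of them (CDKN1A, PHLDA3, FAS and GDF15), against 25.2%, and 5 had an unadjusted p under 0.05, against 22.9%. In NTera-2, 0 rose and 2 fell (FAS and GDF15), against 2.96% and 1.98% of all genes, 0 were called with the fold threshold, against 0.657%, and the arrays of 4 did not overlap (PHLDA3, FAS, TNFRSF10B and GDF15), against 21.3%. An unadjusted p under 0.05 was found for 4 of the 9 in NTera-2, against 14.8%. The medians of the 9 were -0.05 in 2102Ep and -0.15 in NTera-2, compared with -0.01 and 0.04 over all genes.

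The response differed between the lines for 2 of the 9 genes, FAS and GDF15, both with a higher response in 2102Ep, against 2.53% of all genes with a higher and 2.67% with a lower one. None reached 2-fold, against 1.66%, and only these 2 had an unadjusted p under 0.05, against 14.9%. The differences of the other 7 genes (2102Ep minus NTera-2) lay between -0.26 for SESN1 and 0.28 for TNFRSF10B, with adjusted p-values from 0.493 to 0.997. The fall of the SOX2 transcript itself also differed between the lines (-2.49, limma adjusted p = 4.87e-08), and its part in these differences was not tested. All comparisons were drawn from the same 12 arrays, and each response shares its control arrays with the baseline comparison.

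**Figure D2:**
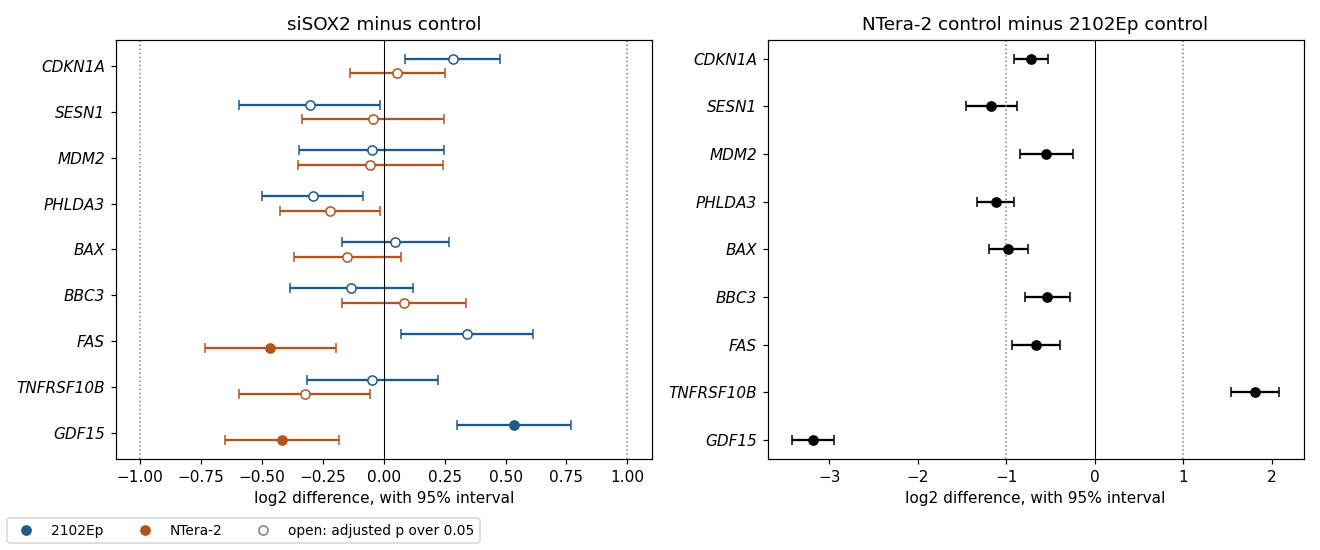
Log2 difference with its 95% interval from the limma fit for siSOX2 against control in each line (left) and NTera-2 against 2102Ep control cells (right); filled points have an adjusted p of 0.05 or less, dotted lines mark 2-fold, and the 2 axes differ in scale. On the left, FAS and GDF15 point in opposite directions in the 2 lines and no point reaches a dotted line; on the right all 9 points are filled, with GDF15 at -3.19 and TNFRSF10B at 1.81.

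A wider list of 51 further p53 targets, of which 47 were measured, was set beside the 9. This list too was chosen with earlier results of these data known. At baseline, 27 of the 47 were lower and 8 higher in NTera-2 than in 2102Ep, with a median of -0.47, compared with -0.06 over all genes. Over all genes 21.5% were lower and 21% higher, which is the background of the counts by role too. By role, 7 of 11 arrest and feedback genes were lower and 0 higher. SFN (14-3-3σ, which holds cells before mitosis) was at 40.8% of the 2102Ep level (log2 -1.29, adjusted p = 1.07e-07), and the p53-induced nuclear protein TP53INP1 was at 55.0%. The stress kinase PLK3 was at 63.0%. All 4 DNA repair and nucleotide genes were lower, among them the damage sensor subunit DDB2 (56.7%), the ribonucleotide reductase subunit RRM2B (60.4%) and the damage recognition factor XPC (69.7%). Of 8 metabolism and autophagy genes, 5 were lower, with the lysosomal fucosidase FUCA1 at 39.6% and the autophagy regulator DRAM1 at 50.5%, and 2 were higher, with the endosomal iron reductase STEAP3 at 213%.

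The further apoptosis targets were split at baseline, with 4 higher and 5 lower in NTera-2 among 11 measured. A pair of other TRAIL receptors were, like TNFRSF10B, higher in NTera-2. TNFRSF10A, the second receptor with a death domain, was 1.12 higher on the log2 scale (adjusted p = 1.41e-06) and TNFRSF10D, a decoy without a complete one, 0.93 higher (adjusted p = 6.94e-07). PMAIP1, which encodes the BH3-only protein NOXA, was 1.17 higher (adjusted p = 2.26e-06). Lower were PERP, a membrane protein of desmosomes (-0.94, adjusted p = 3.93e-07), and EDA2R, the ectodysplasin A2 receptor (-1.14, adjusted p = 4.04e-06). Of 13 targets with other roles, 6 were lower and 2 higher. The cytokine LIF was at 48.4% and PHLDA1 at 52.2%. The serpin SERPINB5 was lower too, but its signals (5.73 in 2102Ep and 4.92 in NTera-2) were near or below those of the leukocyte markers, and no fold is given. Of the 35 further targets that passed at baseline, 29 stayed past the adjusted p with any 1 array left out and 6 did not.

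After siSOX2, 8 further targets rose and 4 fell in 2102Ep and 1 rose and 5 fell in NTera-2, of 47 in each line. Over all genes 6.76% rose and 5.9% fell in 2102Ep, and 2.96% rose and 1.98% fell in NTera-2. The medians were 0.05 and -0.08. In 2102Ep, 4 of 11 arrest genes rose, among them SFN (log2 0.42, adjusted p = 0.0209) and the ubiquitin ligase subunit FBXW7 (0.43, adjusted p = 0.0233), and PLK3 fell by 0.41 (adjusted p = 0.0212). TP53I3, an oxidoreductase, was the only apoptosis gene to pass (0.39, adjusted p = 0.0139). The largest changes were in TRIM22, an antiviral ubiquitin ligase that is also induced by interferon. It fell by 0.97 in 2102Ep (adjusted p = 0.000331) and by 1.76 in NTera-2 (adjusted p = 1.86e-06). THBS1, the matrix protein thrombospondin-1, rose in 2102Ep (0.53, adjusted p = 0.00746). KITLG, the ligand of the KIT receptor, fell by 1.07 in NTera-2 (adjusted p = 0.000296), from 6.23 to 5.17, a level below that of the leukocyte markers.

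Most of these changes no longer passed the adjusted p with at least 1 array left out, while they kept their direction. Of the 12 further targets that passed in 2102Ep, 2 (TRIM22 and THBS1) stayed past the adjusted p with any 1 of the 12 arrays left out. Of the 6 in NTera-2, 2 did so (TRIM22 and KITLG). The number that rose in 2102Ep was 2 without siSOX2 replicate 1 or 2 of that line, 4 without control or siSOX2 replicate 3, and 5 without 2102Ep control replicate 1 or NTera-2 control replicate 3. The number that fell in 2102Ep was 1 without 2102Ep control replicate 1 or siSOX2 replicate 3 and 2 without siSOX2 replicate 2. In NTera-2 the number that fell was 2 without any of its control replicates or siSOX2 replicate 1, and 3 without its siSOX2 replicates 2 or 3 or 2102Ep siSOX2 replicate 1. The 1 gene that rose there, TP53INP1 (0.46, adjusted p = 0.0155), did not pass without NTera-2 control replicate 1 or 3 or siSOX2 replicate 1 or 3. A difference in response passed for 4 further targets (TRIM22, THBS1, KITLG and STEAP3), all with a higher value in 2102Ep. TRIM22 and KITLG had the stronger decrease in NTera-2. None of the 4 stayed past with every single array left out. KITLG signals in 2102Ep (5.77 in control and 5.56 in siSOX2 cells) were near those of the leukocyte markers, so that a decrease there could be understated.

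**Figure D3:**
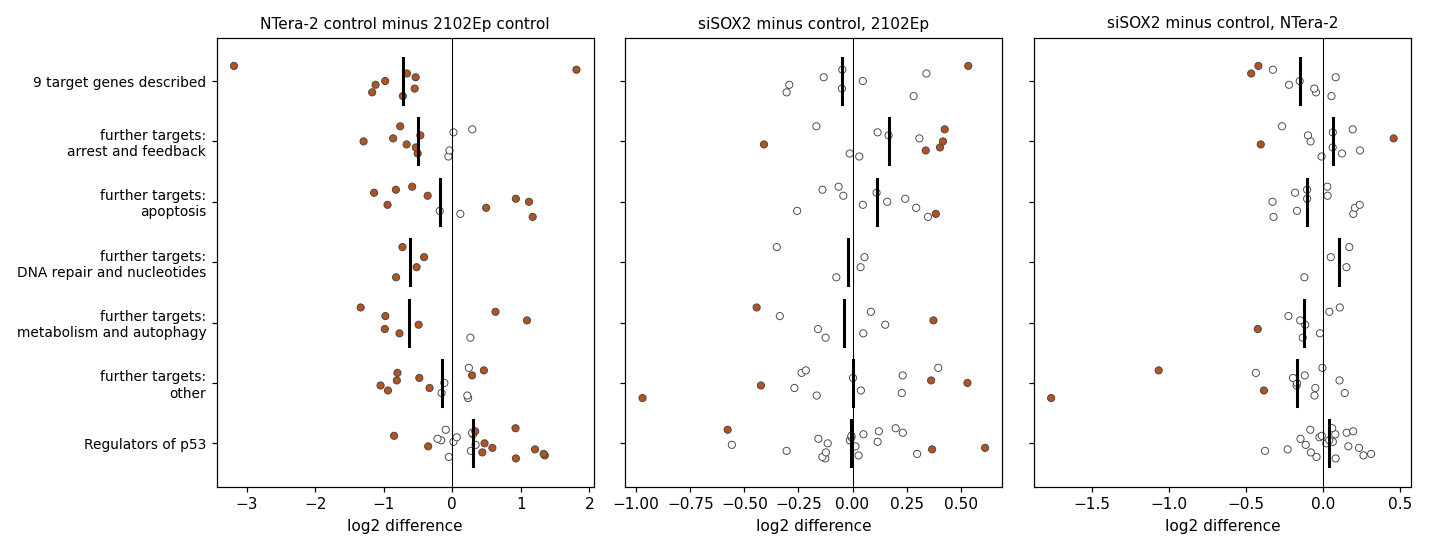
Log2 differences of the 9 p53 target genes, of the further p53 targets by role and of regulators of p53, 1 point a gene, for the baseline comparison and for siSOX2 in each line; filled points have an adjusted p of 0.05 or less, black bars are medians of each list, heights within a list only separate the points, and the 3 axes differ in scale. At baseline the bars of the target lists lie left of 0 and that of the regulators right of it; after siSOX2 all bars lie within 0.2 of 0.

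Genes that act on p53 were measured in 21 of 22 cases. At baseline 9 were higher and 2 lower in NTera-2, against 21% and 21.5% of all genes, with a median of 0.30, compared with -0.06 over all genes. The damage kinases ATM and ATR, which phosphorylate p53, were 1.35 and 1.33 higher on the log2 scale (adjusted p = 2.82e-08 and 1.85e-07), and the damage adaptor TP53BP1 was 1.21 higher (adjusted p = 1.94e-07). MDM4, the relative of MDM2 that masks the p53 activation domain, was 0.93 higher (adjusted p = 3.50e-06) and was singled out after its value was seen. In 2102Ep, siSOX2 raised the kinase HIPK2 (0.61, adjusted p = 0.0083) and TP53BP1 (0.37, adjusted p = 0.0399) and lowered the deacetylase SIRT1 (-0.58, adjusted p = 0.000531), of which only SIRT1 stayed past the threshold with any 1 array left out. HIPK2 and TP53BP1 reached adjusted p-values of 0.0521 and 0.159 in the least favourable omission. Of the 21 regulators, 2 thus rose and 1 fell in 2102Ep, against 6.76% and 5.9% of all genes. No regulator passed in NTera-2, where 2.96% of all genes rose and 1.98% fell. Of the p53 family, TP73 was measured and passed in none of the comparisons.

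The partners of the apoptosis genes were read in 12 of 13 BCL2 family genes and 11 of 14 death receptor signalling genes. BMF, which like BBC3 encodes a BH3-only protein, rose 1.17 (log2) after siSOX2 in 2102Ep, to 225% of control (adjusted p = 2.30e-06), and 0.49 in NTera-2 (adjusted p = 0.0211). The NTera-2 increase of BMF did not pass with every array left out (adjusted p up to 0.129). BCL2L1, which encodes the survival protein BCL-XL, fell by 0.59 in 2102Ep (adjusted p = 0.00154), and at baseline it was at 40.6% in NTera-2 (adjusted p = 9.87e-08). BID, the BH3-only protein that links death receptors to mitochondria, was 0.99 higher in NTera-2 at baseline (adjusted p = 5.35e-06). Of the 12 BCL2 family genes, 2 were higher and 4 lower at baseline, against 21% and 21.5% of all genes. To complete these counts, BCL2L11 was higher (0.61) and BAD (-0.67), BAK1 (-0.37) and HRK (-0.36) were lower. After siSOX2, 1 of the 12 rose and 2 fell in 2102Ep, against 6.76% and 5.9% of all genes. HRK was the other to fall (-0.325, adjusted p = 0.0454, and 0.148 in the least favourable omission). In NTera-2, 1 rose and 0 fell, against 2.96% and 1.98%. Downstream of FAS and TNFRSF10B, CFLAR (c-FLIP, which blocks caspase-8) fell by 0.66 in 2102Ep (adjusted p = 0.000299), and its response differed between the lines (-0.69, adjusted p = 0.00912). CFLAR had several probe sets, and with their mean in place of the brightest the difference in response was -0.43 (adjusted p = 0.163) and the baseline difference -0.19 (adjusted p = 0.192), neither of which passed. At baseline 4 of 11 death receptor genes were lower in NTera-2 and 0 higher, against 21.5% and 21% of all genes. XIAP, an inhibitor of caspases, was at 49.4% and CFLAR, from its brightest probe set, at 58.6%. The initiator caspase gene CASP10 was at 51.4%, but its NTera-2 signal (5.65) was near those of the leukocyte markers, so that the fold may be understated. The other of the 4 was TNFSF10, which encodes TRAIL and was named after its values were seen. Its signals of 5.43 and 4.87 were at or below those of the leukocyte markers.

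Relatives of the 9 genes and the cell cycle genes that CDKN1A acts on were compared in the same way. Of 11 relatives measured, SESN3, a sestrin like SESN1, rose by 1.26 after siSOX2 in NTera-2 (adjusted p = 2.48e-06) and was at 0.35 in 2102Ep, which did not pass; the responses differed (-0.91, adjusted p = 0.0023). SESN3 was also 0.72 higher in NTera-2 at baseline (adjusted p = 8.03e-05), where SESN1 was lower. PHLDA1 was lower in NTera-2 at baseline (-0.94, adjusted p = 5.57e-07), as PHLDA3 was. Among 13 CDK inhibitors and G1 cyclins, CCND1 (cyclin D1) and CDK2, which drive entry into S phase, rose in 2102Ep (0.51, adjusted p = 0.00188, and 0.59, adjusted p = 0.00446), and CCNE2 (cyclin E2) fell by 0.73 (adjusted p = 0.0233; 0.113 in the least favourable omission). Of the 13, 2 thus rose and 1 fell in 2102Ep, against 6.76% and 5.9% of all genes. In NTera-2 none of the 13 passed, where 2.96% of all genes rose and 1.98% fell. CDKN1B, the p21 relative p27, differed in response (-0.58, adjusted p = 0.038), being at -0.27 in 2102Ep and 0.30 in NTera-2, and was lost with single arrays left out (adjusted p up to 0.0972).

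For the 4 genes called at baseline, the genes with the most similar pattern were sought as those with the smallest root mean square difference of log2 signal over the 12 arrays after centring. For SESN1 they were SLC66A1LP and SNORD49A (0.0894 and 0.114), and for PHLDA3 ACOT7 and DCAF12L1 (0.114 and 0.117). For TNFRSF10B they were CCDC88A and HLTF (0.181 and 0.183). For GDF15 they were RHBDD1 and FAM111B (0.274 and 0.316). This measure is not scaled to the spread of a gene, so that it cannot be compared between the 4. The SD over the arrays was 0.577 for SESN1, 0.585 for PHLDA3, 0.893 for TNFRSF10B and 1.93 for GDF15.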

How the data were processed

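Total RNA of 12 cultures was labelled and hybridised to Affymetrix Human Gene 1.0 ST arrays. The authors made the deposited log2 values, 1 per probe set, by robust multi-array averaging in the maker's software, which corrects background, quantile-normalizes probes and compresses changes of dim genes. No source states the log base, and the values, lying between 1.57 and 15.0, were read as log2. The submitters' processing notes name limma. From these values, the platform annotation gave 1 gene for 19158 probe sets, several for 1388 and none for 11775. For 637 of 18404 genes the brightest of several probe sets was used, and 18376 symbols matched RefSeq (GRCh38.p14).

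All 12 arrays were fitted with a mean per group in limma 3.58.1 (R 4.3.3, data.table in version 1.17.8), with Benjamini-Hochberg adjustment over all genes of each comparison. Genes pass at an adjusted p of 0.05 and are called when the change is also at least 2-fold and the unadjusted p at most 0.01, the threshold of the study's methods. All adjusted p-values are from this fit, intervals are 95% intervals of it, and p-values measure only the spread between these cultures, 3 a group. The smallest p of an exact permutation test of 3 against 3 is 0.1. Scripts were tested on simulated data. Figures were drawn with matplotlib 3.10.9 under Python 3.11.15. The number of arrays limits the precision, and levels are not comparable between genes.

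The 9 genes and all lists were chosen with earlier results of these data known. The text names the 9 genes, SOX2, every gene of the p53-related lists called in any comparison and up to 3 of them with the smallest adjusted p for each list and comparison, with exceptions stated. Cell type markers are given as counts. Alternatives were 2 further normalizations, a filter on dim genes, other summaries of probe sets, a trended robust fit, only the groups compared, the replicate number as a block, no fold threshold and each array left out in turn.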

Additional observations from a re-analysis of the deposited data

Results flagged for a closer look

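The response to siSOX2 differed between the lines, by a test of the difference itself (2102Ep minus NTera-2, log2), for 2 of the 9 p53 targets. It was 0.81 for FAS (0.34 in 2102Ep and -0.47 in NTera-2, limma adjusted p = 0.0116) and 0.95 for GDF15 (0.53 and -0.42, adjusted p = 0.00102), with all 3 siSOX2 arrays of each line on one side of the controls and the lines on opposite sides. The SOX2 transcript itself fell to 11.4% of control in 2102Ep and to 64.0% in NTera-2.

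Among the wider lists the test of the difference also passed for 10 genes. Over all genes it passed with a positive difference for 2.53% and with a negative one for 2.67%. By list, it passed for 4 of 47 further targets, 2 of 21 regulators, 1 of 12 BCL2 family genes and 1 of 11 death receptor genes. It also passed for 1 of 13 CDK inhibitors and G1 cyclins and for 2 of 11 relatives, CDKN1B being in both of these lists. The difference was positive for TRIM22 (0.79), KITLG (0.85), THBS1 (0.70), STEAP3 (0.52), TP53BP1 (0.60) and BMF (0.67), with adjusted p-values of 0.0493, 0.0278, 0.0258, 0.0482, 0.036 and 0.0252. It was negative for SESN3 (-0.91), CFLAR (-0.69), CDKN1B (-0.58) and SIRT1 (-0.50), with adjusted p-values of 0.0023, 0.00912, 0.038 and 0.0495. TRIM22 and KITLG were at -0.97 and -0.22 in 2102Ep and at -1.76 and -1.07 in NTera-2. In 2102Ep KITLG was near the leukocyte markers and did not pass. CFLAR and SIRT1 were at -0.66 and -0.58 in 2102Ep and at 0.04 and -0.08 in NTera-2. BMF, SESN3 and CDKN1B were at 1.17, 0.35 and -0.27 in 2102Ep and at 0.49, 1.26 and 0.30 in NTera-2. Of these 10, SESN3 and CFLAR stayed past the threshold with any 1 array left out, but the CFLAR difference did not pass with the mean of its probe sets (-0.43, adjusted p = 0.163).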

How the results depend on the processing

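The baseline differences of all 9 genes kept their direction and passed the adjusted p under every alternative that kept them (highest 0.0207, for MDM2), with 9 past and 4 to 5 called with 1 array left out. With no fold threshold 1, 2, 2 and 9 of the 9 genes would be called in 2102Ep, in NTera-2, for the difference in response and at baseline, in place of 0, 0, 0 and 4. The number past the adjusted p in 2102Ep, 1 in the reported fit, was 3 with genes below the median signal left out, 2 with each array centred on its median, 3 after a further quantile normalization and 1 to 2 with 1 array left out. In NTera-2, 2 in the reported fit, it was 1 with the replicate block (GDF15, adjusted p = 0.0571, being lost), 1 with only the groups compared, 1 without dim genes (a filter that removes FAS), 1 after quantile normalization, 0 with every probe set by itself and 0 to 2 with 1 array left out. For the difference in response, 2 in the reported fit, it was 1 without dim genes and 1 with every probe set by itself. FAS (adjusted p = 0.0567) was the gene lost with every probe set by itself. With any 1 array left out the number was 2. The called number for the difference in response, 0 in the reported fit, was 1 with median centring and 1 after quantile normalization. It was 0 to 1 with 1 array left out, the gene being GDF15. For the 9 genes directions turned only with 1 array left out and only for changes that did not pass. They ran from -0.12 to 0.0055 for MDM2 and from -0.20 to 0.0319 for TNFRSF10B in 2102Ep, from -0.20 to 0.14 for MDM2, from -0.17 to 0.0594 for SESN1 and from -0.0338 to 0.18 for BBC3 in NTera-2, and from -0.19 to 0.15 for the MDM2 difference in response. Of the 47 further targets, with only the groups compared in the fit 3 rose and 2 fell in 2102Ep, in place of 8 and 4. With the mean of its probe sets CFLAR lost its baseline difference and its difference in response. The replicate numbers did not pair the arrays (correlations of same-numbered arrays from -0.249 to 0.179, with 2 of 12 arrays closest to their own number). With the replicate block 2191, 834, 900 and 7680 of all genes passed the adjusted p in the 4 comparisons, in place of 2330, 909, 957 and 7809, and among further targets 5 rose in 2102Ep, 3 fell in NTera-2 and 2 differed in response, in place of 8, 5 and 4. The causes of these shifts were not tested, apart from the removal of FAS.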
